A study of Mus musculus with 18 samples.

Results

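Microglia nuclei were picked out of 2 single-nucleus chromatin accessibility libraries of mouse retina, and numbered 106 among 2700 nuclei (3.93%). The libraries came from a multiome experiment, in which the RNA and the accessible DNA of the same nuclei are read; the accessibility libraries are used here. A barcode, the tag that marks the DNA of 1 nucleus, was kept with 3000 to 90000 fragments, each fragment being a stretch of DNA cut out at open chromatin by a transposase. A kept barcode was called a microglia nucleus where it held at least 4 fragments in the windows of 10 genes and at least 3 times the number expected from its total. A window is a gene's body with 2 kb on both sides, and the expected number is the barcode's total times the share of all kept fragments that fell in the 10 windows, which was 0.00929%. The genes were Csf1r, P2ry12, Cx3cr1, C3ar1, Tyrobp, Trem2, C1qa, Ccl3, Ccl4 and Tnf. Because the nuclei were chosen on these windows, values in them are given as a description.

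The study expresses transcription factors of the Ikaros family in Muller glia, the radial glia of the retina, to turn them into neurons. The control library is labelled as mCherry, a red fluorescent protein, in Muller glia of the retina of C57BL/6 mice of the line GLAST-CRE ERT2 ; RosaYFP. In that line the GLAST promoter, active in Muller glia, drives a Cre recombinase that tamoxifen switches on, and Cre then turns on the yellow reporter YFP. The other library is labelled Ikzf1/4, after 2 Ikaros factors, and its labels repeat its title in place of tissue, cell type, line, strain and condition. Both carry the note of tamoxifen at 14 days, while the run names in the headers of the deposited files give 48 hours. With 1 library per group no difference between the groups can be tested, no source used here gives the number of animals pooled, and every interval below is a 95% interval that covers counting error only.

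Microglia are the resident macrophages of the nervous tissue. In the retina they survey the synaptic layers with fine processes, take up dying cells and debris, and answer injury with cytokines and chemokines. They descend from yolk sac progenitors, depend on the receptor Csf1r for survival and on the factor PU.1, made from the gene Spi1, for their identity.

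The control library held 88 microglia nuclei among 1955 kept barcodes and the Ikzf1/4 library 18 among 745. The libraries held 52119123 and 29358834 fragments in all, of which the kept barcodes had 14990373 and 9270660, with a median of 6248 and 10682 per barcode. The microglia nuclei held 1117970 and 270210 fragments. Per nucleus the control members ranged from 3132 to 73463 fragments around a median of 11076, and the Ikzf1/4 members from 5472 to 29180 around 14060. The other barcodes were shallower, with medians of 6128 and 10561. A deeper barcode reaches the minimum of 4 rule fragments more easily, so the rule itself favours deep members. The libraries shared 3 kept barcodes, none of them a member. Besides these nuclei, 178 and 66 barcodes passed the same rule for a list of Muller glia genes, the labelled cell type, and 97 and 125 for a list of rod genes. Because the rule asks for 3 times the average of all kept barcodes, these counts are not shares of the cell types.

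The DNA at the start sites of 6 genes shows where the insertions of these nuclei collected. The stretches below run from 250 bases before to 50 bases after a gene's start, as RefSeq places it on GRCm38.p6, and are written 5′ to 3′ along the gene. They are shown because they held many transposase insertions of microglia nuclei and few of the other barcodes. Capitals mark the letters GAGGAA, or TTCCTC where they lie on the opposite strand, the core that PU.1 and related factors recognise. The first 4 hold these letters and the last 2 do not.
C1qb: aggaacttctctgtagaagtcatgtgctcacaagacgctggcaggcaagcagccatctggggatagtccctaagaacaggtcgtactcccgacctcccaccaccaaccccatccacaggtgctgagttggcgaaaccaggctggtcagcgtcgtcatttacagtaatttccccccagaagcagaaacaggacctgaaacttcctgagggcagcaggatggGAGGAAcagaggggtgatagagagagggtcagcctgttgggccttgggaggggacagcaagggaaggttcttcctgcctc
Ccl12: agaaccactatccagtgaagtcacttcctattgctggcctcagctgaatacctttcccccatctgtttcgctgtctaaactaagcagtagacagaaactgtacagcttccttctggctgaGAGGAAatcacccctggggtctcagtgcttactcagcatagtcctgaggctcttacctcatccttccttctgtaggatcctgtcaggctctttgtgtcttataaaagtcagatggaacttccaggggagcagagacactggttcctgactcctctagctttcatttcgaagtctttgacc
Ccl3: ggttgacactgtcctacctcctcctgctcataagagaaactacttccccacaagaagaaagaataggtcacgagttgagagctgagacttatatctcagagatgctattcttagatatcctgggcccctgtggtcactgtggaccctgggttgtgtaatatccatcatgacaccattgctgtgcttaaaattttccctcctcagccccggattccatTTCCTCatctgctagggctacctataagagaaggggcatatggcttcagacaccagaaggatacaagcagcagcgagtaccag
Tnf: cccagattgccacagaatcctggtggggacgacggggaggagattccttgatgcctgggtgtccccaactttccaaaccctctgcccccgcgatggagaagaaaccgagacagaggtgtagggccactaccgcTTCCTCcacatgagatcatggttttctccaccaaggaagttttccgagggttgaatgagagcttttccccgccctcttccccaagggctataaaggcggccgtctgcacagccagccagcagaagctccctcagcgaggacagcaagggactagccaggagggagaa
C3ar1: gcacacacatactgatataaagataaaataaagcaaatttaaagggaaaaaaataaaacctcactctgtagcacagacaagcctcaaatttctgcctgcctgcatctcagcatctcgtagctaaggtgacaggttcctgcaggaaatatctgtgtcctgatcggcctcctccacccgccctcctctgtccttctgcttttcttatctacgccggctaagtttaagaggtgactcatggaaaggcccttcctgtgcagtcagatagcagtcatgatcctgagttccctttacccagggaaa
Cx3cr1: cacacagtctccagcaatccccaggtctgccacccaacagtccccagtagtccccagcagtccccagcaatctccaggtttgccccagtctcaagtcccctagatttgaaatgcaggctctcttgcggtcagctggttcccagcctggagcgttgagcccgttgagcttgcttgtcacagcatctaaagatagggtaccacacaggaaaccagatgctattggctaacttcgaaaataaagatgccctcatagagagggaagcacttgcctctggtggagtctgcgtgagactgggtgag

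C1qb, which encodes a chain of the complement protein C1q that tags synapses and debris, lies at chr4:136886151-136886450 on the minus strand. Its stretch held 69 insertions of control members, 15 of Ikzf1/4 members and 15 of all other barcodes, a rate 92.3 times higher in members; the marked letters start 30 bases before the gene's start. Ccl12, a chemokine of the monocyte chemoattractant family, lies at chr11:82101595-82101894 on the plus strand and held 40 and 6 insertions of members against 2 of other barcodes. This was the highest ratio among all promoters with at least 20 member insertions, at 379 (99.1 to 3223). That minimum favours promoters that are high in members. The interval does not cover the choice of the highest, so the value describes the ranking. Ccl3, a macrophage inflammatory chemokine, lies at chr11:83649329-83649628 on the minus strand and held 51 and 23 against 12. Tnf, which encodes the cytokine tumour necrosis factor, lies at chr17:35201958-35202257 on the minus strand and held 45 and 10 against 9. C3ar1, the receptor for the complement fragment C3a, lies at chr6:122856108-122856407 on the minus strand and held 29 and 5 against 2. Cx3cr1, the receptor for the neuronal chemokine fractalkine, lies at chr9:120068247-120068546 on the minus strand and held 20 and 4 against 4. Ccl3, Tnf, C3ar1 and Cx3cr1 are rule genes, so their counts describe how the nuclei were chosen; C1qb and Ccl12 are not.

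The PU.1 letters were common at the starts of the listed microglia genes that the rule did not use. On either strand, GAGGAA was present in 17 of the 22 promoter entries of these 20 genes (77.3%), in 3 of the 6 entries of rule genes and in 51 of the 100 promoters with the highest ratio. Of all 21262 promoters of the same length, 5824 held it (27.4%), and of the 7509 with at least 20 member insertions, 1872 (24.9%). TGTGGT, the letters read by RUNX factors, were present on either strand in 7 of the 22 (31.8%), against 14.97% of all promoters. Small lists of other cell types held these letters too: TGTGGT was present in 3 of 6 promoters of rod genes and 1 of 7 of Muller glia genes, and GAGGAA in 2 of 6 and 3 of 7. GGGCGG, the GC box of promoters that are open in most cells, was present in 5 of the 22 against 46.2% of all, and the 22 were poorer in G and C (50.2% against 56.2%). A match describes letters and is not a measured binding site, and no match says only that these letters are not in the 300 bases. Of the 117 genes in 7 lists for which promoters were sought, 83 had an entry in the RefSeq table.

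**Figure D1:**
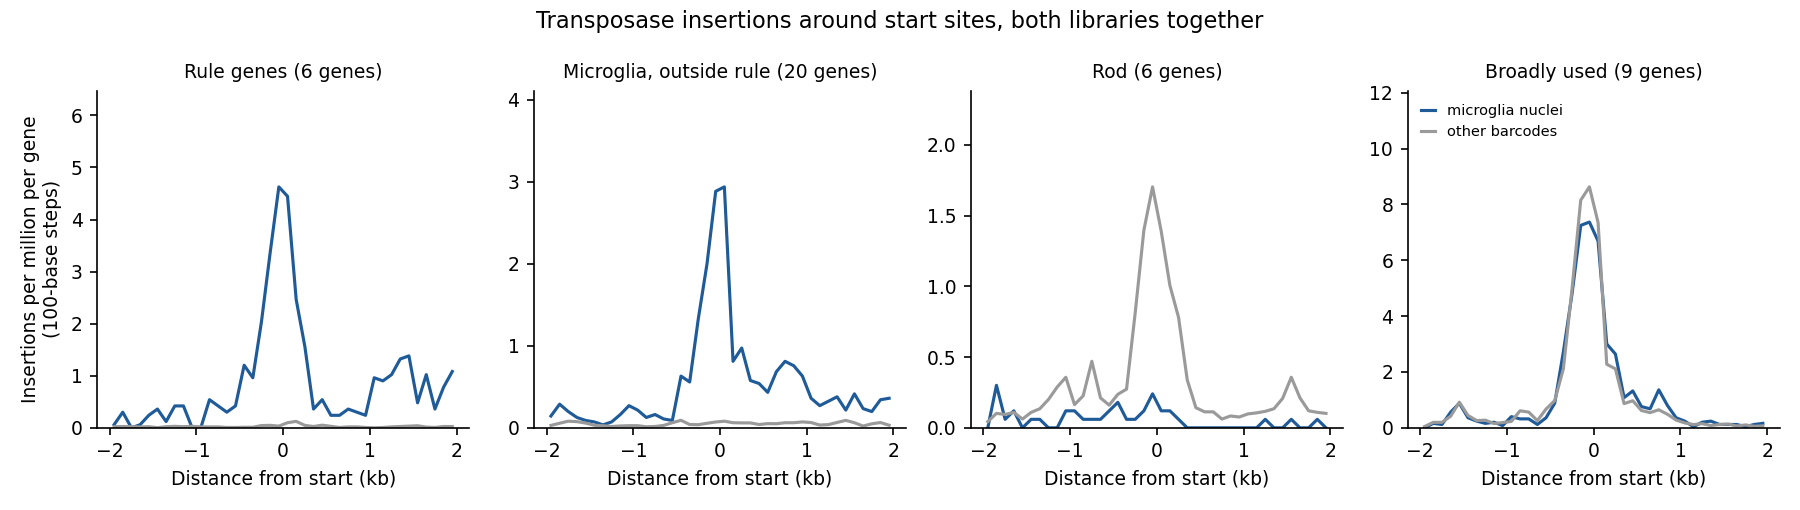
Transposase insertions per 1000000 and per gene in 100-base steps around the starts of genes with a promoter entry (horizontal axis: distance from the start in kb; vertical axis: insertions per 1000000), for microglia nuclei of both libraries pooled (blue) and all other barcodes (grey). At the 6 rule genes members reach 4.63 just before the start and other barcodes stay at or below 0.124; at the 20 other microglia genes members reach 2.94, at the 6 rod genes only the other barcodes have a peak, of 1.70, and at the 9 broadly used genes both have one.

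The plot of insertions around gene starts shows the same contrast over the microglia genes as a group. Over 20 microglia genes outside the rule, microglia nuclei had 163 insertions in the first 100 bases of the genes, 2.94 per 1000000 per gene, and other barcodes 74, or 0.0810. Over 6 rod genes, members had 4 insertions in the 100 bases before the start and other barcodes 467. Scaled, these are 0.240 and 1.70 per 1000000 per gene. Over 9 broadly used genes the levels were 7.37 for members and 8.63 for other barcodes in the 100 bases before the start. Muller glia genes, which are not drawn, did not show the contrast of the rod genes. Over 6 of them, the highest 100-base step was 2.94 in members and 3.01 in other barcodes. The median promoter ratio was 50.02 for the listed microglia genes outside the rule, 0.696 for the Muller glia genes and 0.701 for all promoters.

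Not every microglia gene was most open at its start. P2ry12, the ADP receptor that steers microglial processes, had 14 and 2 member insertions in its 300 bases (14 in other barcodes), while a 500-base tile 34234 bases after the start, inside the gene and also inside Med12l, held 39 and 10 against 7. Trem2, the lipid receptor that drives phagocytosis, had 0 and 2 insertions in its 300 bases and 10 and 4 in a tile 850 bases after the start, against 4. Itgam, the integrin CD11b of myeloid cells, had 33 and 10 in a tile 26611 bases into the gene against 2. The tiles are longer than the 300 bases and were picked as those with the most member insertions in each window.

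**Figure D2:**
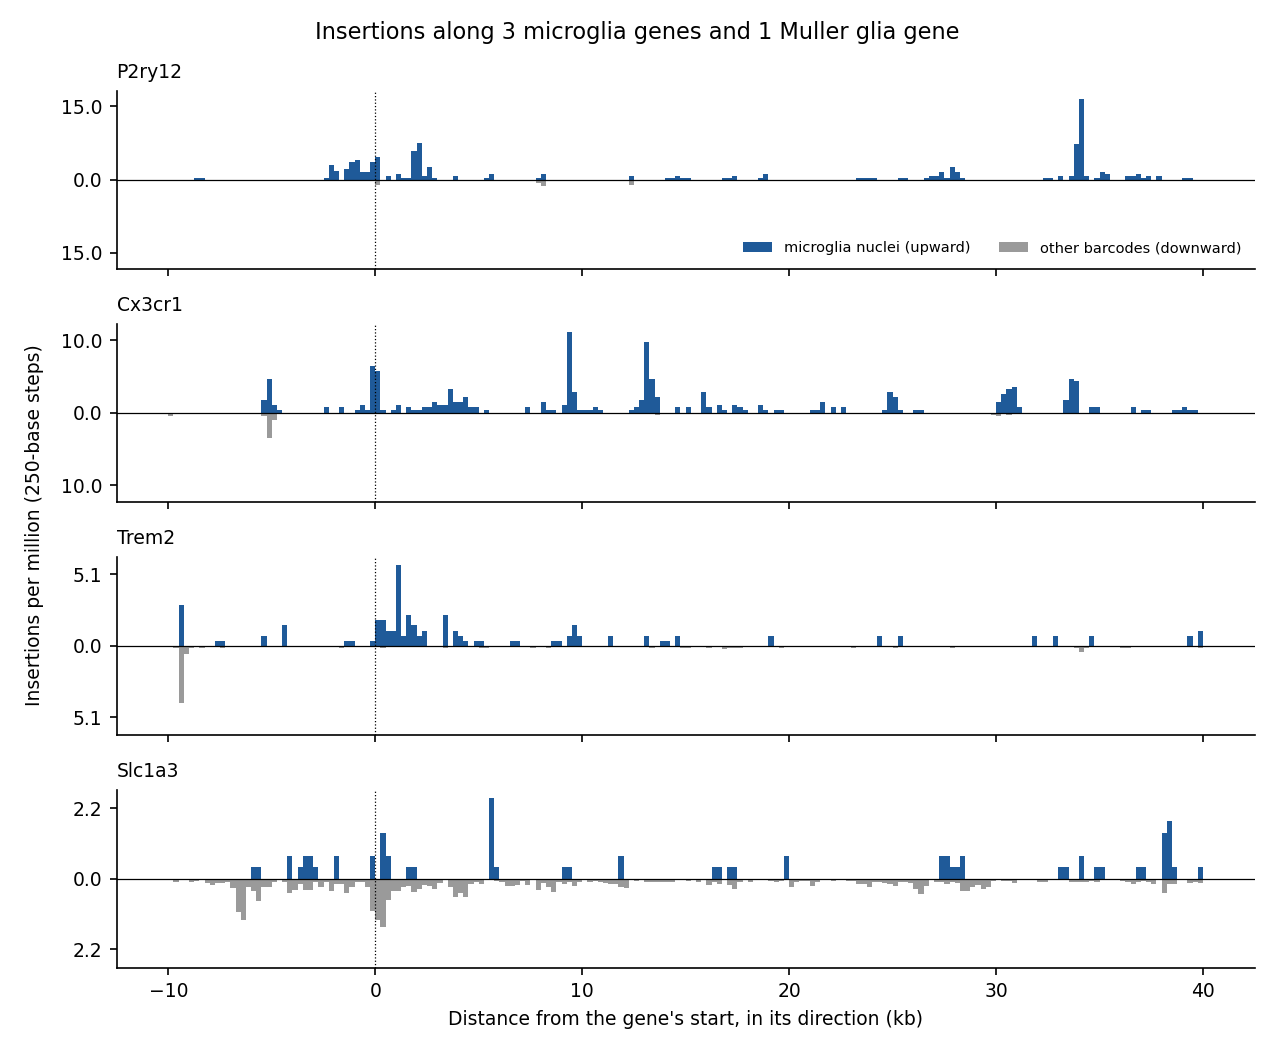
Insertions per 1000000 in 250-base steps along P2ry12, Cx3cr1, Trem2 and Slc1a3, with microglia nuclei of both libraries pooled drawn upward (blue) and all other barcodes downward (grey), against distance from the gene's start in kb in the direction of the gene. P2ry12 members peak at 16.6 34125 bases after the start and Trem2 members at 5.77 1125 bases after it. The Muller glia gene Slc1a3, which encodes GLAST, has its highest member step at 2.52, made of 7 insertions. Its highest step of other barcodes is 1.49, so members are not lower there by peak height.

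Most members had fragments in several of the 10 rule windows. Each control member held 4 to 34 rule fragments with a median of 8, or 3.34 to 20.4 times the expected number with a median of 8.39. Ikzf1/4 members held 4 to 29 with a median of 10, or 3.31 to 15.9 times with a median of 8.48. A member had fragments in a median of 5 of the 10 windows in the control library and 6 in the Ikzf1/4 library, while 2 control members and 1 Ikzf1/4 member had them in 1 window alone.

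Among receptors, Csf1r, the growth factor receptor on which microglia depend, had fragments in 58 of 88 control members and 15 of 18 Ikzf1/4 members, at 107 and 200 counts per 1000000 (CPM, fragments scaled to the total of the nuclei concerned) against 13.9 and 11.4 in other barcodes. P2ry12 was hit in 53 and 10 members at 100.2 and 104 CPM against 18.7 and 10.6. Cx3cr1 was hit in 51 and 13 at 79.6 and 111 CPM against 4.97 and 4.56, and C3ar1 in 44 and 11. The 111 CPM of Cx3cr1 leans on 1 Ikzf1/4 nucleus with 12 fragments, beside a median of 1. Of the signalling partners, Trem2 was hit in 15 and 5 nuclei, and Tyrobp, the adaptor DAP12 through which Trem2 signals, in 43 and 9. C1qa, another C1q chain, was hit in 54 and 12.

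The chemokine windows stood furthest above the other barcodes. Ccl4, which encodes a chemokine for monocytes and T cells, was hit in 66 and 13 nuclei at 133 and 163 CPM, against 4.83 and 2.00 in other barcodes. Ccl3 was hit in 43 and 12 nuclei, 64.9 and 133 times the level of other barcodes, and Tnf in 40 and 9. The windows of Ccl3 and Ccl4 overlap, so a fragment between them counts for both genes but once for a nucleus. All members had at least 1 fragment in the other 7 windows, and 69 control and 17 Ikzf1/4 nuclei were chosen when the 3 genes were left out of the rule. In 11 control and 3 Ikzf1/4 members the 3 windows held no fragment, and 77 and 15 had fragments in both sets.

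**Figure D3:**
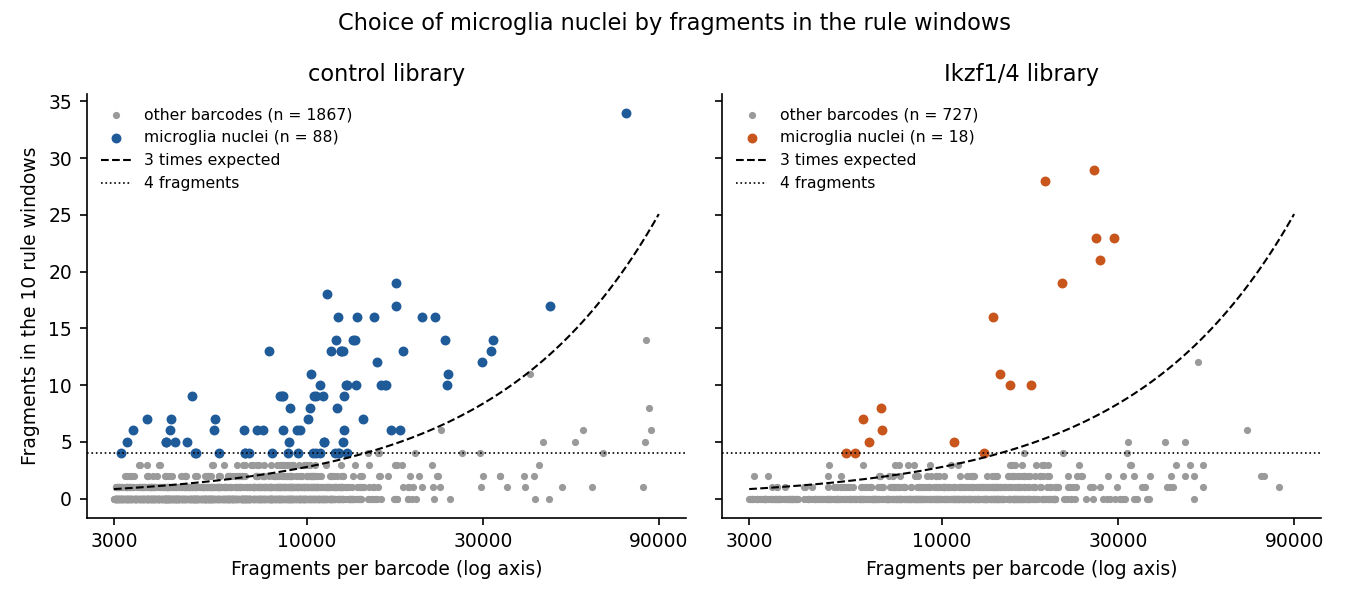
Fragments in the 10 rule windows (vertical axis) against all fragments of a barcode (horizontal, log axis) in the control library (left) and the Ikzf1/4 library (right); coloured points are microglia nuclei, grey points other kept barcodes, and the lines mark 4 fragments and 3 times the expected number. All 88 and 18 members lie on or above both lines by construction, and among the deepest barcodes several grey points have 4 or more fragments but fall under the dashed line.

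The nearest barcodes on both sides of the threshold are described by a list of 25 microglia genes whose windows do not touch those of the rule. The level of this list over all barcodes that are not members is set to 1. In the control library, 7 members at 3.34 to 3.96 times the expected number stood at 2.76, 17 at 4 to 6 times at 3.25, 33 at 6 to 10 times at 4.04 and 31 above that at 4.57. Just outside, 6 barcodes with at least 4 fragments at 2.20 to 2.93 times stood at 1.91, and 33 barcodes with 3 fragments and at least 3 times at 1.75. In the Ikzf1/4 library the 2 members under 6 times stood at 0.385 and 0.698, the 11 at 6 to 10 times at 5.34 and the 5 above that at 6.23. Just outside, 3 barcodes at 2 to 3 times stood at 0.517 and 8 with 3 fragments and at least 3 times at 1.40. The 17 control members with exactly 4 fragments were at 3.80.

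Windows that the rule did not use gave an independent view of the same nuclei. Over the 25 microglia genes, control members held 1965 fragments, 3.80 (3.61 to 4.00) times the level of other barcodes, and Ikzf1/4 members held 556, or 5.15 (4.71 to 5.64) times. Nucleus by nucleus, the list stood at 0.241, 4.08 and 8.92 times the level of other barcodes of the library as the lowest, median and highest value in the control library. In the Ikzf1/4 library these were 0.385, 5.23 and 7.64. It was at least 2 in 82 of 88 control members (93.2%) and 16 of 18 Ikzf1/4 members (88.9%). Among other barcodes the same was true of 158 of 1867 (8.46%) and 54 of 727 (7.43%), whose medians were 0.814 and 0.804. The list was not above 1 in 3 control members and 2 Ikzf1/4 members, so the label microglia is not borne out by it for these 5 nuclei.

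All 25 windows were above the level of other barcodes in both libraries, and 24 and 25 were at least 2 times above it. Over the 10058 gene windows with at least 40 fragments in members, 11.1% reached 2 in the control library and 13.4% in the Ikzf1/4 library, and the median window stood at 1.13 and 1.11. This minimum favours windows that are high in members: over all windows the medians were 0.990 and 0.860, and some of the 25 windows do not reach it. Windows of this and the other lists were counted without the minimum, and the share at 2 or more over all windows is not given here. Among the genes with most fragments were Inpp5d, the inositol phosphatase SHIP1 of blood cells (5.72 and 5.27 times), and Dock2, a Rac activator of migrating leukocytes (1.93 and 2.40). Others were Plcg2, a phospholipase that acts after Trem2 (3.14 and 4.53), Ptprc, the leukocyte antigen CD45 (5.48 and 5.50), and Itgb2, the partner of CD11b (6.75 and 7.71). Tmem119, a surface marker that separates microglia from other macrophages, had 17 and 8 fragments at 4.22 (2.28 to 7.44) and 7.40 (2.97 to 16.2) times. Siglech, a lectin with similar use, had 23 and 5 at 6.07 (3.52 to 10.2) and 8.33 (2.44 to 22.9).

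With every barcode cut to 3000 fragments the ratios were 4.21 and 5.43. The 11 control nuclei without a Ccl3, Ccl4 or Tnf fragment stood at 3.16 (2.73 to 3.65) in this list and the 77 with fragments in both sets at 3.89 (3.69 to 4.10). In the Ikzf1/4 library the 3 nuclei without such a fragment held 44, 3 and 2 fragments of the list, so their joint value of 2.87 (2.12 to 3.80) rests on 1 nucleus; the other 15 stood at 5.58 (5.08 to 6.13).

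Transcription factors of macrophages followed, with a pooled ratio of 3.20 (3.04 to 3.38) and 3.86 (3.51 to 4.22). In both libraries 13 of 16 windows were at least 2 times above other barcodes, beside 11.1% and 13.4% of windows with at least 40 member fragments. Spi1, the gene of PU.1, stood at 5.55 and 8.83 times, and Runx1, a factor of early blood development, at 3.41 and 4.30. Mef2c, which restrains microglial activation, stood at 3.76 and 6.70, Fli1, an Ets factor of blood and vessels, at 5.22 and 8.56, and Irf5, an inflammatory interferon regulatory factor, at 6.76 and 5.73. Sall1, a zinc finger factor that among macrophages is known from microglia, had 77 and 9 fragments at 5.93 (4.46 to 7.83) and 3.19 (1.41 to 6.32) times. Bhlhe41, a repressor found in many tissues, was at 0.610 and 1.22 and Sall3, a paralog of Sall1, at 0.940 and 0.574. For some of these genes a single region stood further apart than the whole window: the busiest 500-base tile of Spi1 held 41 and 22 member insertions against 18 of other barcodes, 57.7 (33.7 to 104) times their rate, and the busiest of Mef2c, inside the gene, 61 and 16 against 26. For others it did not, as the busiest tiles of Irf8, an interferon regulatory factor of myeloid cells, and of Bhlhe41 stood at 1.77 and 0.773 times.

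The Ikaros family was read as well, because the Ikzf1/4 library is named after 2 of its members. The window of Ikzf1, whose product Ikaros is made in blood cells including microglia, stood in members at 108 and 148 CPM against 23.6 and 13.6 in other barcodes. It had fragments in 50 of 88 and 13 of 18 members. Ikzf4, the gene of Eos, had 19 and 7 member fragments, 0.632 (0.376 to 1.001) and 0.602 (0.241 to 1.25) times the other barcodes. These counts are of open chromatin over the genomic loci, and whether DNA of an introduced copy adds to them was not tested.

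Receptors of innate immunity were above other barcodes in all 20 windows in both libraries. Of these, 18 and 19 were at least 2 times above, beside 11.1% and 13.4% of windows with at least 40 member fragments. The pooled ratios were 3.74 (3.50 to 3.99) and 5.14 (4.60 to 5.72). Tgfbr2, the receptor chain for TGF-beta, a signal that keeps microglia in their resting state, stood at 4.53 and 9.60, and its partner Tgfbr1 at 1.64 and 2.06. Nlrp3, the sensor of an inflammasome, stood at 12.6 and 17.6, Ly86, which helps present bacterial lipids to a Toll-like receptor relative, at 4.72 and 8.33, and Csf3r, the receptor for granulocyte colony-stimulating factor, at 4.52 and 4.09. Ifngr1, a chain of the interferon gamma receptor, stood at 1.34 and 1.62. The Toll-like receptor gene Tlr2 stood at 14.2 and 18.9.

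Cytokine and inflammatory genes stood at 4.25 (3.97 to 4.54) and 4.10 (3.63 to 4.61) times. At least 2 times above were 16 and 15 of 20 windows, beside 11.1% and 13.4% of windows with at least 40 member fragments. Cd83, a surface protein of activated antigen-presenting cells, had fragments in 79 of 88 control members and 16 of 18 Ikzf1/4 members, at 217 and 229 CPM against 11.6 and 12.9. When each nucleus was cut to 3000 fragments it was still hit in 55.7% of control members, against 3.37% of other barcodes. Nfkbiz and Nfkbia, both regulators of NF-kappaB, stood at 3.08 and 2.49 and at 3.51 and 2.76, and Tnfaip3, an enzyme that ends that signal, at 2.99 and 1.93. Cxcl16, a chemokine that binds oxidised lipids, stood at 3.62 and 5.35. Il1a, which encodes the cytokine interleukin 1 alpha, had 68 and 18 fragments at 11.9 and 11.99 times. Its sister gene Il1b had 11 and 5 fragments at 4.71 (2.12 to 9.71) and 9.25 (2.69 to 25.9), and Nos2, the inducible nitric oxide synthase, stood at 1.03 (0.642 to 1.58) and 1.19 (0.564 to 2.22). The list is about accessibility, and RNA of these genes was not analysed here.

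Genes of phagocytosis and lysosomes were above by less, 1.88 (1.77 to 2.00) and 2.28 (2.04 to 2.54) times. At 2 or more were 7 and 11 of 18 windows, beside 11.1% and 13.4% of windows with at least 40 member fragments. Ctsb and Ctsd, lysosomal proteases, stood at 3.02 and 3.59 and at 2.31 and 1.84, and Cd68, a lysosomal membrane protein of macrophages, at 3.28 and 2.36. Axl and Mertk, receptors by which cells recognise dying neighbours, stood at 1.62 and 1.52 and at 1.87 and 3.50, and Cd9, a tetraspanin, at 1.75 and 2.86. Members held the phagocytosis list at 1063 and 1321 CPM. Barcodes that passed the rule for Muller glia genes held it at 819 and 989, and those for amacrine and ganglion genes at 711 and 1040. For rod, cone and bipolar genes the values lay between 495 and 558. The part of these barcodes in the ratios of the list was not tested. MHC class II genes, which present antigen to T cells, stood at 1.68 (1.53 to 1.84) and 1.39 (1.15 to 1.68). In this group Cd74, the invariant chain, stood at 7.35 and 6.12, H2-Eb1, a peptide-binding chain, at 1.87 and 1.49, and H2-DMa, which helps load peptides, at 1.09 and 1.11, although it had the most fragments of the list.

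**Figure D4:**
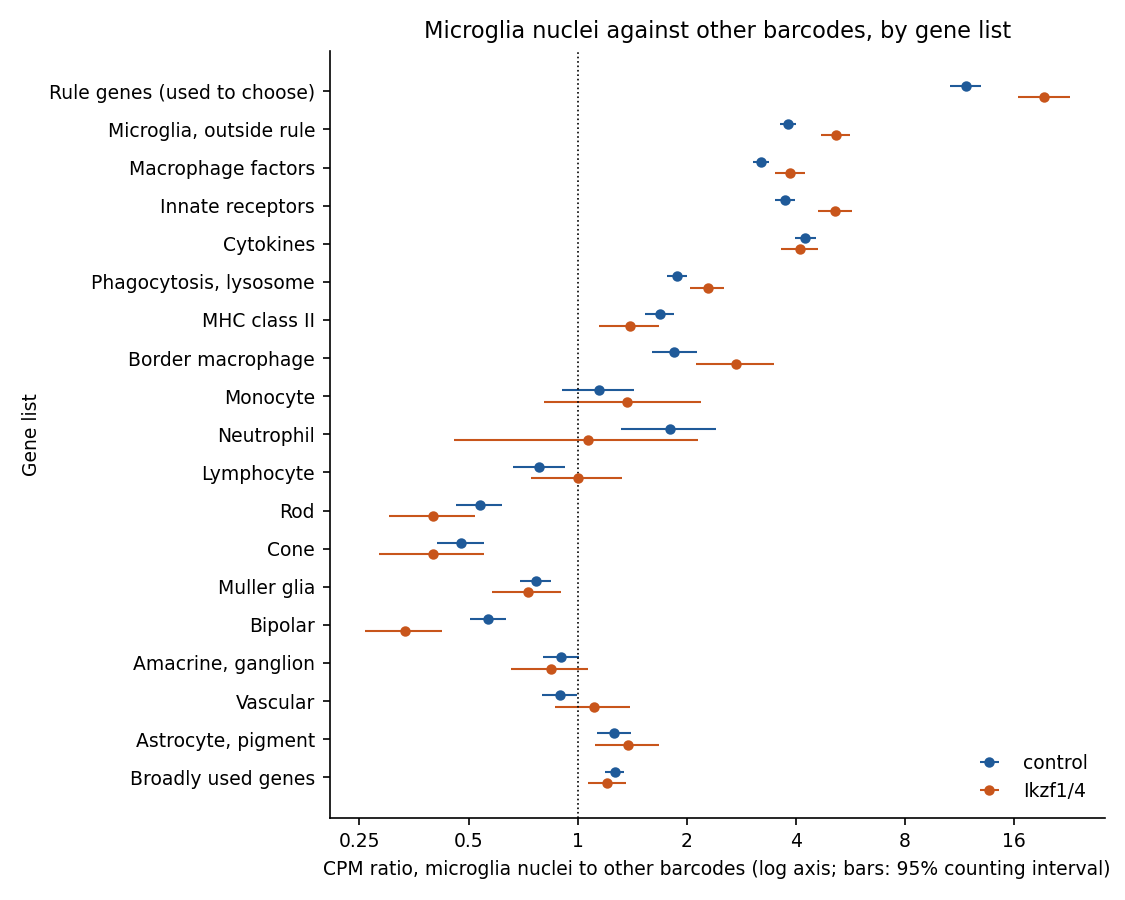
Ratio of the summed level (CPM) of each gene list in microglia nuclei to that in other kept barcodes of the same library (horizontal, log axis), with 95% counting intervals, for the control (blue) and Ikzf1/4 (orange) libraries. Lists of microglia, macrophage factors, innate receptors and cytokines lie above 3 in both libraries, monocyte and neutrophil lists between 1.07 and 1.80, and rod, cone and bipolar lists at or below 0.567; the rule genes were used to choose the nuclei.

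In pooled ratio, the monocyte, lymphocyte and neutrophil lists stood closer to the level of other barcodes than the list of 25 microglia genes did. At least 2 times above were 2 and 2 of 8 monocyte windows. For neutrophil genes it was 4 and 1 of 10 windows, and for lymphocyte genes 2 and 6 of 14. Of windows with at least 40 member fragments, 11.1% and 13.4% were, but most windows of these lists had fewer fragments. Ccr2, the chemokine receptor of blood monocytes, had 5 fragments in control members and 0 in Ikzf1/4 members, and Ly6c2, another monocyte marker, 1 and 0. The monocyte list as a whole stood at 1.15 (0.906 to 1.43) and 1.37 (0.806 to 2.19), and the lymphocyte list at 0.784 (0.661 to 0.924) and 1.003. The neutrophil list had 52 and 8 fragments and stood at 1.80 (1.32 to 2.41) and 1.07. Of its genes, S100a8 and S100a9, calcium-binding proteins of neutrophils, had 2 and 0 fragments each. Retnlg, a resistin-like protein of neutrophils, had 0 in both libraries. The control members' fragments in this list lay largely in the windows of Ltf, the iron-binding lactoferrin, with 19 (3.37 times, 1.92 to 5.66), Cxcr2, a chemokine receptor, with 8 (3.82 times, 1.49 to 8.68), Mpo, the myeloperoxidase, with 8 (1.20 times, 0.50 to 2.47), and Elane, the neutrophil elastase, with 7 (3.78 times, 1.37 to 9.09). The part of neutrophils among the members was not tested. Genes of macrophages at the vessels and borders of the nervous system stood at 1.85 (1.60 to 2.13) and 2.74 (2.13 to 3.48). Of their 9 windows, 7 and 8 were above 1. At least 2 times above were 3 and 6, beside 11.1% and 13.4% of windows with at least 40 member fragments. Mrc1, their mannose receptor CD206, stood at 1.91 (1.30 to 2.72) and 2.64 (1.11 to 5.40), and Lyve1, the hyaluronan receptor, at 0.327 and 0.333 from 4 and 1 fragments. What part border macrophages have among the members was not tested.

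The rod, cone, bipolar and Muller glia lists were below the other barcodes. The rod list stood at 0.536 and 0.400 times, the cone list at 0.476 and 0.400, the bipolar list at 0.567 and 0.333, and the Muller glia list at 0.765 and 0.728. The amacrine and ganglion list stood at 0.901 (0.802 to 1.009) and 0.845 (0.657 to 1.07), with intervals that include 1. The other barcodes include 178 and 66 that passed the rule for Muller glia genes. Members held the Muller glia list at 403 and 322 CPM. Barcodes that passed the rule for rod genes held it at 280 and 283, for cone genes at 288 and 399 and for bipolar genes at 172 and 229. Of the members, 21 control and 3 Ikzf1/4 nuclei had no fragment in the rod list, and 5 and 6 none in the Muller glia list. When the rule was applied to each of these 5 lists, 0 of 88 and 0 of 18 members passed. The 2 Ikzf1/4 members whose microglia list was not above 1 still held many retinal fragments. Of the 87 Muller glia fragments of Ikzf1/4 members, 17 lay in 1 of them. Of the 69 bipolar fragments, 11 lay in the other. Taking 3 nuclei as an approximate limit for a count of 0 gives shares of up to 3.41% and 16.7%, which are not exact intervals. Of the other barcodes only 485 of 1867 and 327 of 727 passed for 1 or more, so the rule misses many retinal nuclei and does not bound the retinal DNA in members. The list of astrocyte and pigment epithelium genes was above the other barcodes, at 1.26 (1.13 to 1.40) and 1.38 (1.11 to 1.68). Genes used by most cells stood at 1.27 (1.19 to 1.35) and 1.21.

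Outside the rule windows, the 15 windows with the highest ratio in both libraries included 5 listed genes, Ccl12, Cd83, Osm, Tlr2 and Nlrp3. Ranked by the lower of both ratios, Slfn2, which guards immune cells against loss of quiescence, led with 69 and 19 fragments at 24.5 (16.1 to 37.9) and 28.8 (14.7 to 55.7) times. Ccl12 followed at 23.7 and 33.3, and Ccrl2, a receptor that holds the attractant chemerin on the cell surface, at 22.6 and 23.1. The receptors Lilrb4a, an inhibitory immunoglobulin-like receptor, and Cd300ld4 and Cd300c2, of the CD300 family, stood at 18.3 and 83.3, 17.8 and 27.4, and 12.8 and 26.2; the Cd300ld4 and Cd300c2 windows overlap. Cd83 stood at 18.7 and 17.8, Osm, a cytokine of the interleukin 6 family, at 14.9 and 32.0, and Rgs1, a brake on chemokine receptor signalling, at 16.5 and 24.5. Plek, the platelet and leukocyte protein pleckstrin, was hit in 70 and 15 nuclei at 13.2 and 17.5, and Cyba, a subunit of the NADPH oxidase of phagocytes, in 57 and 13 at 13.2 and 16.7. Neurl3, a ubiquitin ligase, stood at 13.6 and 18.2. Olfr111, an olfactory receptor gene, stood at 16.7 and 16.7 from 31 and 10 fragments.

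Tiles of 500 bases were read without regard to genes, but only those with enough insertions of members, which favours tiles that are high in them. The tiles below come from 20898 with at least 20 member insertions in both libraries together. A tile inside Lpp, a gene of cell adhesion, at chr16:24625501-24626000 held 39 and 8 member insertions and 1 in all other barcodes. Tiles inside Slc25a12, a mitochondrial carrier, and Dyrk4, a protein kinase, held 34 and 6 and 33 and 4 insertions, each against 1. A tile at -64863 bases from the start of Il6, the cytokine interleukin 6, held 22 and 5 against 0, although the window of the gene itself had 16 and 4 member fragments. These tiles were ranked by their ratio, so their values describe the ranking.

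The share of microglia nuclei was 4.50% (3.63 to 5.52) in the control library and 2.42% (1.44 to 3.79) in the Ikzf1/4 library, a difference of -2.09 percentage points (-3.43 to -0.481). The size of the difference depended on the depth and threshold asked of a barcode. With a minimum of 10000 fragments the shares were 14.3% and 2.75%, a difference of -11.6, and with a minimum of 5000 it was -3.20. With at least 6 fragments and 5 times the expected number it was -0.966, and with at least 10 and 8 times the shares were 1.02% and 1.07%, the opposite order, from 20 and 8 nuclei. With the rule without Ccl3, Ccl4 and Tnf it was -1.25, with gene bodies alone -1.38, and on 5000 fragments drawn from every barcode with at least 5000, -1.13 from 34 and 10 nuclei. The libraries also differed in read depth, at 1.96 and 4.59 read pairs per fragment, and in the make-up of the other barcodes, and the part of either in the difference was not tested. In a share, fewer microglia and more nuclei of other kinds cannot be told apart.

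Of 9909 windows outside the sex chromosomes with at least 40 member fragments, 253 (2.55%) were at least 2 times higher and 496 (5.01%) at least 2 times lower in Ikzf1/4 microglia nuclei than in control microglia nuclei. Scaled to the fragments in gene windows, the split was 177 higher and 586 lower. The order turned with other settings, to 80 higher and 43 lower with at least 10 fragments and 8 times the expected number, 114 and 104 with the rule on 5000 fragments, and 1425 and 1175 at 1.5 times. The median window held 64 fragments in control and 17 in Ikzf1/4 members and had a ratio of 1.07. Of the 749 windows past 2 times, which were picked for their ratio, 591 had a counting interval that did not include 1. Over all 9909 windows, 832 had an interval above 1 and 417 an interval below 1, together 12.6%. This order is opposite to that of the 253 and 496. The spread between animals is not in these intervals. The members of both libraries also differed in fragment length, with medians of 103 and 135 bases, and in fragments on the sex chromosomes, with 21607 and 16709 CPM on chromosome X and 115 and 174 CPM on chromosome Y; the part of these in the ratios was not tested.

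The list of microglia genes outside the rule stood at 1.17 (1.06 to 1.29) times the control level, with 2 of its 18 windows of at least 40 fragments at 2 or more and 0 at 0.5 or less, beside 2.55% and 5.01% of all 9909 windows. Other barcodes stood at 0.863 for the same list. Innate receptors stood at 1.35 (1.20 to 1.51), macrophage factors at 1.21 (1.10 to 1.34), phagocytosis genes at 1.24 (1.10 to 1.40) and cytokines at 1.09 (0.958 to 1.23). MHC class II genes stood at 0.911 (0.738 to 1.12). Of lists for other cell types, border macrophage genes stood at 1.33 (1.01 to 1.74) and lymphocyte genes at 1.39 (0.990 to 1.92), Muller glia genes at 0.7999 (0.628 to 1.01), monocyte genes at 0.876 (0.496 to 1.47) and neutrophil genes at 0.637 (0.261 to 1.35). Across the alternatives Muller glia genes ran from 0.552 (0.395 to 0.755) with gene bodies alone to 1.11 (0.912 to 1.35) with the rule without Ccl3, Ccl4 and Tnf. Across the same settings the border macrophage ratio ran from 0.599 (0.210 to 1.40), with each barcode thinned to 3000 fragments, to 1.65 (1.23 to 2.19), with a minimum of 10000 fragments. The part of these cell types in the other lists' ratios was not tested. The value for microglia genes depended on how the nuclei were chosen, being 0.959 (0.871 to 1.05) with the expected number taken from each library alone and 0.998 (0.904 to 1.10) with the rule without Ccl3, Ccl4 and Tnf. Under the same pair of alternatives macrophage factors were at 1.03 (0.935 to 1.14) and 1.07 (0.966 to 1.18), and phagocytosis genes at 1.09 (0.966 to 1.22) and 1.14 (1.01 to 1.29). Innate receptors lay between 1.09 and 1.48 under all alternatives tried, with intervals that include 1 at 10 fragments and 8 times expected and after thinning.

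**Figure D5:**
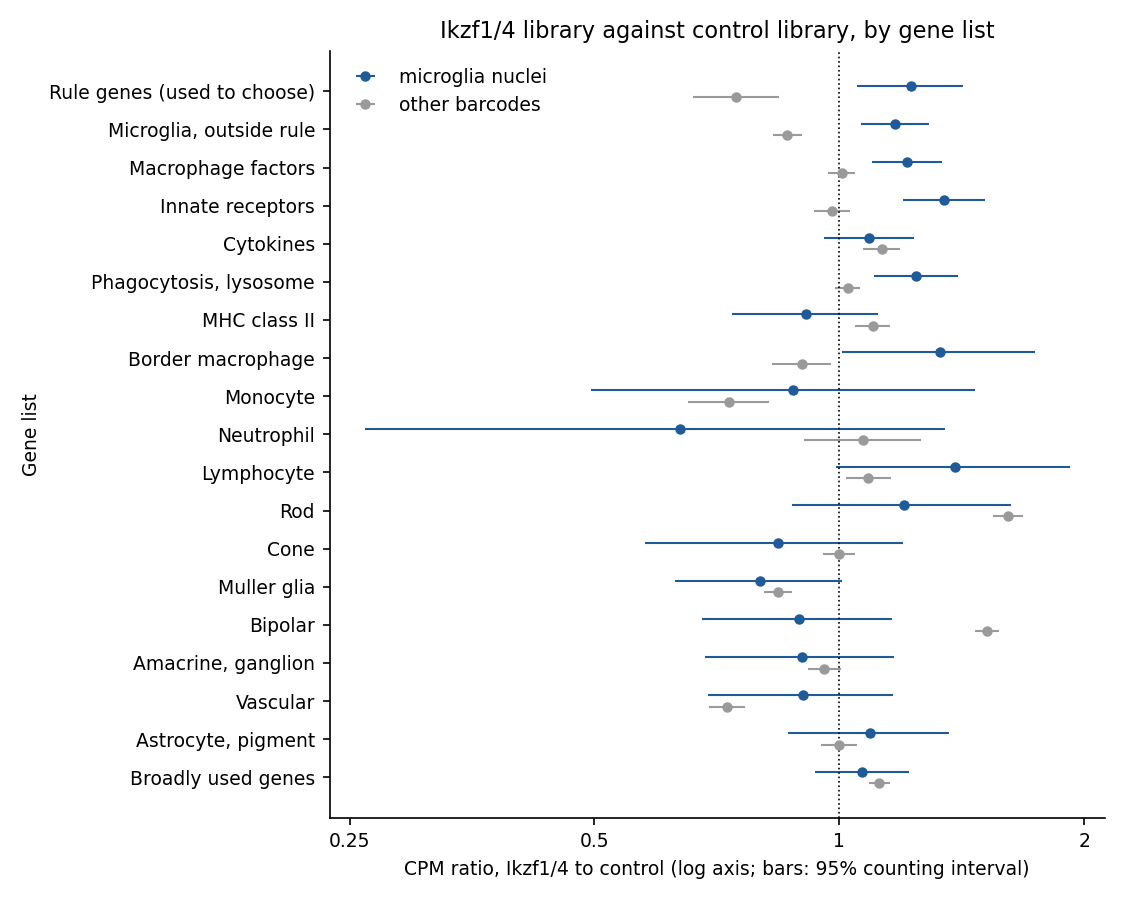
Ratio of the summed level (CPM) of each gene list in the Ikzf1/4 library to that in the control library (horizontal, log axis) with 95% counting intervals, for microglia nuclei (blue) and for all other kept barcodes (grey). Among microglia nuclei the innate receptor list is at 1.35 and the MHC class II list at 0.911, while among other barcodes the rod and bipolar lists are at 1.61 and 1.52.

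Single listed genes outside the rule had ratios on both sides of 1. Spi1 had 145 and 62 fragments, 130 and 229 CPM, a ratio of 1.77 (1.29 to 2.40). Mertk had 143 and 63, a ratio of 1.82 (1.33 to 2.47), and Tgfbr2 183 and 66, a ratio of 1.49 (1.11 to 1.99). Cd33, an inhibitory lectin of microglia, had 42 and 23 fragments, a ratio of 2.27 (1.30 to 3.85), and Bhlhe41 61 and 36, a ratio of 2.44 (1.57 to 3.75). Apoe, the lipid carrier that activated microglia raise, had 20 and 19 fragments at 3.93 (1.98 to 7.76), from 16 and 8 nuclei, just short of the 40 fragments required of a window.

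Sall1 was lower in the Ikzf1/4 members, with 77 and 9 fragments and a ratio of 0.484 (0.213 to 0.967). Sall1 fragments were in 44 of 88 control and 4 of 18 Ikzf1/4 nuclei. Its busiest tile held 41 and 2 insertions of members against 60 of other barcodes. Inpp5d stood at 1.03 (0.781 to 1.35) and Cd83 at 1.06 (0.785 to 1.40), both with intervals that include 1. Of the rule genes, on which the nuclei were chosen and which are given as a description, Csf1r stood at 1.86, Cx3cr1 at 1.39 and P2ry12 at 1.03. The Cx3cr1 value leans on 1 Ikzf1/4 nucleus with 12 fragments, beside a median of 1 per Ikzf1/4 member. Cd33, Bhlhe41, Apoe and Sall1 were picked out after their values were seen. The other single genes given here are also only some of those listed. Of listed genes among the windows highest against other barcodes, Ccl12 stood at 0.752 (0.306 to 1.62) and Nlrp3 at 0.999 (0.636 to 1.52). Tlr2 stood at 1.34 (0.776 to 2.22) and Osm at 1.87 (1.11 to 3.09).

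Among the 9909 windows, the 8 highest and 8 lowest ratios between the libraries were of genes on none of the lists. Ptprz1, a receptor phosphatase of glia, was highest at 4.85 (2.87 to 8.25), from 29 fragments in 15 control nuclei and 34 in 3 Ikzf1/4 nuclei. Cd36, a scavenger receptor for lipids, stood at 4.00 (2.32 to 6.90), from 30 fragments in 22 nuclei and 29 in 9. In other barcodes these genes stood at 0.745 and 0.704. The remaining 6 of the 8 highest, the mitochondrial enzyme gene Tst, the predicted gene Gm45871, the complement gene C8g, the isomerase gene Ppil3, the exonuclease gene Dis3l and the RNA ligase gene Rtcb, lay between 3.50 and 4.14 from 19 to 24 Ikzf1/4 fragments each.

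The 8 lowest were windows of long genes with 1 or no fragment in Ikzf1/4 members, which reached the minimum of 40 fragments through control members alone; their counts are a description. Sema5a, an axon guidance gene, had 83 fragments in 25 control nuclei and 0 in the Ikzf1/4 library. Cobl, an actin nucleator, had 44 and 0, and Fstl5, a secreted follistatin-like protein, 43 and 0. Ddah1, an enzyme of arginine metabolism, Prickle2, a cell polarity gene, Zmat4, a zinc finger gene, Arhgap44, a regulator of small GTPases, and Khdrbs2, a splicing factor of neurons, had 64, 62, 57, 51 and 50 fragments in control members and 1 each in Ikzf1/4 members. In the control library each of the 8 was lower in members than in other barcodes, from 0.379 to 0.785 times, and other barcodes of the 2 libraries stood at 0.731 to 0.901 of each other.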

How the data were processed

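The deposited files hold 1 line per unique fragment with its barcode and a count of read pairs. Per the file headers, the authors made them with cellranger-arc 2.0.1 on the mm10 reference; the submitters' processing notes also name Signac 1.8.0 and MACS2. The read-pair counts were used for depth only, since a fragment counts once here. The RNA libraries of the same nuclei are not analysed here.

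Fragments were summed per barcode in the windows of protein-coding genes (RefSeq, GRCm38.p6) with Python 3.11.15, pandas 2.3.3 and SciPy 1.17.1. A level is counts per 1000000 (CPM) of all fragments of the barcodes concerned. Ratios of counts carry exact conditional binomial intervals, shares exact Clopper-Pearson intervals, and the difference of shares a Newcombe interval. With 1 library per group no test was made. Windows of neighbouring genes can overlap, and fragments carry no strand, so a fragment may count for several genes. Insertions are both ends of a fragment, as deposited.

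No doublet caller was run; barcodes over 90000 fragments (9 and 17) were left out, and each member was checked against the same rule for 5 retinal classes, which does not replace doublet calling. The 20 gene lists hold 235 genes, all found in the annotation. The members, the lists and the alternatives were chosen with earlier results of these data known. Named genes were the 6 of a list with most member fragments, the 15 windows highest against other barcodes in both libraries, the 8 highest and 8 lowest between libraries, and listed promoters; all other genes, tiles and promoters were picked after their values were seen. Distances of tiles are to the nearest start with a RefSeq promoter entry. Some genes that this rule names are not reported here. Scripts were tested on simulated counts.

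Alternatives were other thresholds, depth minima, windows and scalings, a thinning to 3000 fragments, and 2 chosen after seeing the data: leaving out the deepest control member, and the rule on 5000 fragments per barcode.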

Additional observations from a re-analysis of the deposited data

How the results depend on the processing

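The difference in share, -2.09 percentage points, turned to 0.0508 with at least 10 fragments and 8 times the expected number (20 and 8 nuclei), and was -11.6 with a minimum of 10000 fragments. Under the other alternatives run for it, it lay between -3.20 and -0.966, always lower in the Ikzf1/4 library. The ratio of the 25 microglia genes to other barcodes, 3.80 in the control library, was 4.06 with at least 6 fragments and 5 times expected, 3.45 with a minimum of 10000 fragments, 3.44 with gene bodies alone (3.445), 3.46 without Ccl3, Ccl4 and Tnf in the rule, and 4.21 thinned to 3000 fragments. In the Ikzf1/4 library, 5.15 became 5.87 with at least 10 and 8 times, 4.20 with the expected number from each library alone, 4.09 without Ccl3, Ccl4 and Tnf, and 5.96 with the rule on 5000 fragments. The cause of these changes was not tested.

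The count of windows past 2 times between the libraries, 749, rests on small counts. It was 373 with at least 6 fragments and 5 times expected (13 Ikzf1/4 nuclei), 123 with at least 10 and 8 times (80 higher), 218 (114 higher) with the rule on 5000 fragments and 108 after thinning, all with fewer fragments and fewer windows tested. It was 1611 and 104 with at least 20 and 100 fragments per window, and 2600 and 173 at 1.5 and 3 times; at 1.5 times 1425 were higher and 1175 lower. Without the deepest control member it was 645, and the ratio 3.88 in the control library (3.885). No paired analysis was possible because each group has 1 library.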

Other observations

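Among the 500-base tiles with the highest ratios, distances were taken to the nearest start with a RefSeq promoter entry, so a nearer start without an entry is possible. A tile at -80309 bases from the start of Zeb2, a repressor that macrophages use to keep their tissue identity, held 25 and 6 insertions of control and Ikzf1/4 microglia nuclei against 1 of all other barcodes. A tile at -2397 bases from the start of Ubp1, a transcription factor gene, held 30 and 4 against 1. A tile at -93482 bases from the start of Treh, the gene of trehalase, held 24 and 8 against 1, and a tile 30587 bases after the start of Kcnj2, a potassium channel gene, 23 and 8 against 0. Which gene such a tile acts on was not measured.

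Among the promoters of genes outside the lists with high ratios were those of Gpr183, an oxysterol receptor of immune cells, with 27 member insertions against 2, Havcr2, the checkpoint receptor TIM-3, with 25 against 2, and Il1rn, the interleukin 1 receptor antagonist, with 22 against 2. Srgn, the granule proteoglycan serglycin, had 30 against 3, and Aim2, a sensor of cytosolic DNA, 32 against 4. These promoters were picked for their ratio among those with at least 20 member insertions, so their values describe the ranking. Of the quality measures, the enrichment of fragments at gene ends had medians of 17.98 and 17.10 in the control library and 19.66 and 19.84 in the Ikzf1/4 library, and fragments shorter than the DNA wound on a nucleosome made up 62.3% and 60.4%, and 52.8% and 52.1%. No member had an enrichment below 4, against 68 of 1867 and 56 of 727 other barcodes. Members were deeper, with medians of 11076 against 6128 and 14060 against 10561 fragments. The rule's minimum of 4 fragments favours deep barcodes, so this depth is not an independent measure of quality.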
